A study of Mus musculus with 4 samples.

Results

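Imprinted genes are expressed mainly from the copy inherited from 1 parent, because DNA methylation set in the egg or the sperm at a control region marks the parental copies differently. They lie in clusters, and several of them act on growth: Igf2 is a fetal growth factor, Igf2r clears it, and Cdkn1c and Grb10 restrain growth. Many imprinted genes are abundant in fetal tissue and low in adult epithelium, and loss of imprinting is well known in tumors. The 38 imprinted genes described here were chosen by name, with earlier results on these FPKM values in view, among them the level of Snurf in AOC11-LN, so their values are given as a description and no test was made on them. Of the 38 genes, 37 have an entry among the 34685 gene identifiers of the expression table, and the expression of Magel2 was not analysed here. FPKM is a fragment count divided by transcript length and library size, and it does not separate the parental alleles. Between genes and lines it allows a rough comparison only. Differences between lines were therefore counted after a further normalization, while ratios of FPKM are given without it.

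The RNA came from cultured cells of 4 oral cancer lines, with 1 library per line. AOC3 and AOC11 were made from oral tumors of male C57BL/6 mice that had received the carcinogen DMBA (7,12-dimethylbenzanthracene) on the buccal mucosa, and AOC3-LN and AOC11-LN from lymph node metastases. The shared number in the names pairs a primary with a lymph node line, which is read here as 1 mouse per pair. All lines share the strain, the carcinogen, a passage under the skin of a C57BL/6 mouse and removal of fibroblasts with a kit, and none was treated further. A difference between lines has no replicate check, and a difference between mice cannot be told apart from a difference between these particular lines.

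All 7 epithelial markers reached 1 FPKM in at least 1 line, among them Krt8, Krt18, Cdh1 and Epcam. Their sum lay between 2736 and 3494 FPKM, but single markers were uneven between the pairs. Krt5 stood at 499 (primary) and 275 FPKM (lymph node) for the AOC3 pair, against 4.99 and 17.0 for the AOC11 pair. In the same order, Trp63 was at 1.69 and 2.10 FPKM against 0.0848 and 0.841, so both AOC11 lines were under 1 FPKM. Krt14 leaned the other way, with 166 and 150 FPKM against 257 and 259. Mesenchymal cells express several imprinted genes strongly, so fibroblast markers are given beside them. None of the 8 fibroblast markers reached 1 FPKM, and their sum was 1.17 FPKM for AOC11-LN, against 0.511 for AOC11, 0.323 for AOC3-LN and 0.246 for AOC3. AOC11-LN had the highest value of Col1a1 (0.407 FPKM), Pdgfra (0.383), Col3a1 (0.161), Thy1 (0.125), Dcn (0.0578) and Lum (0.0141). The remaining markers did not follow: Col1a2 was highest in AOC3 (0.0611 FPKM, against 0.0230 in AOC11-LN), and Pdgfrb was listed at 0 in AOC11-LN. The part of these transcripts in the imprinted genes that were highest in AOC11-LN was not tested. The 5 leukocyte markers summed to at most 0.0795 FPKM and the 3 endothelial markers to at most 0.384 FPKM, with no marker at 1 FPKM and Cd3e and Adgre1 listed at 0 in every line. The skeletal muscle markers summed to at most 0.210 FPKM. Of the neural crest and neuron markers, which summed to 1.10 to 3.09 FPKM, Mitf alone reached 1 FPKM, with 2.38 in AOC3-LN, 1.32 in AOC11, 0.868 in AOC3 and 0.522 in AOC11-LN. From the steps between low FPKM values, the libraries were estimated to hold 28000000 to 33900000 fragments, with AOC3-LN the smallest.

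Of the 37 imprinted genes, 15 reached 1 FPKM in at least 1 line (40.5%). This is close to the share over all genes of the table, 40.8%, and below that over protein-coding genes, 58.2%. The 37 genes include noncoding RNAs such as H19, Airn and Meg3, so the share over protein-coding genes is not like for like. Of the other 22 genes, 15 stayed under 0.1 FPKM in every line and 7 had their highest value between 0.1 and 1 FPKM. Just inside this limit was Mkrn3, at 1.02 FPKM in AOC11-LN, and just outside it were Slc22a18, at 0.666 FPKM in AOC3, and Peg12, at 0.658 FPKM in AOC11-LN. By parental class, 8 of 21 paternally expressed genes passed, 3 of 10 maternally expressed genes, and 4 of the 6 genes whose imprint depends on tissue or promoter. The map of levels by locus shows that no gene of the Dlk1-Meg3, Peg3, Peg10 and Igf2-H19 clusters reached 1 FPKM, while both genes at Igf2r-Airn and at Mest did.

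**Figure D1:**
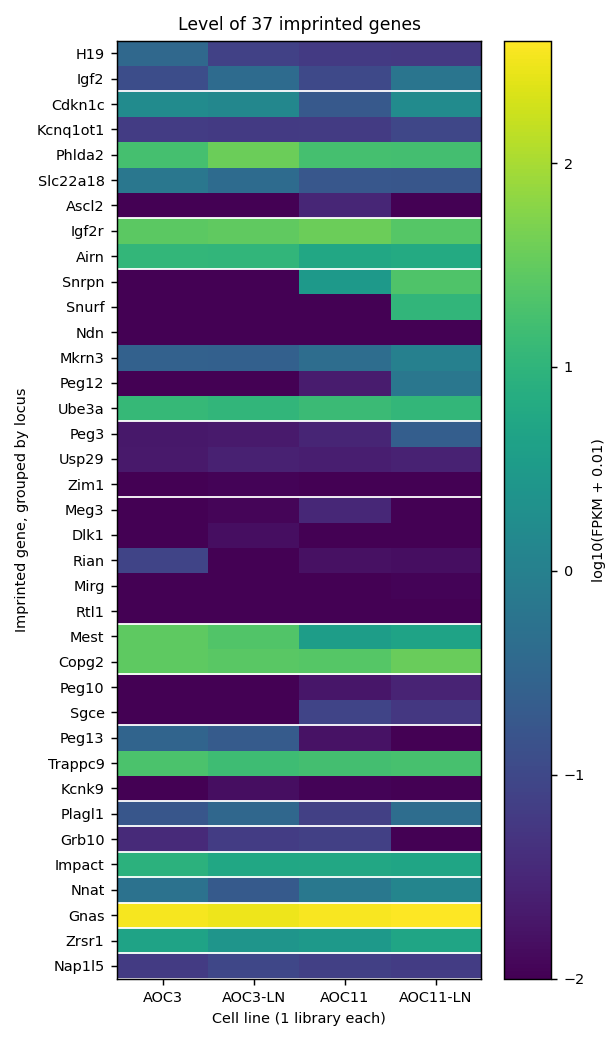
Level of 37 imprinted genes (rows, grouped by locus between white lines) in the 4 lines (columns), as log10(FPKM + 0.01) by colour. Gnas is the brightest row, the Dlk1-Meg3 and Peg10 clusters are dark in every line, and Snrpn and Mest change colour between lines.

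The imprinted genes with the widest differences between lines, Snrpn, Snurf and Mest, sit in the Prader-Willi/Angelman domain of chromosome 7 and at Mest on chromosome 6. The RefSeq sequences of their promoters are shown because the genes at these starts differed between lines or, for Ndn, lie in the same domain and were listed at 0 throughout. Each window runs from 250 bases before to 50 bases after the start on GRCm38.p6, 5′ to 3′ on the strand of the gene, with every CG dinucleotide, the site of DNA methylation, in capitals. Snurf and Snrpn share their window, chr7:60005150-60005449 on the minus strand, and further windows of Snrpn upstream are not shown. The windows of Mkrn3 (chr7:62420104-62420403, minus), Peg12 (chr7:62464461-62464760, minus) and Ndn (chr7:62348027-62348326, plus) follow, and then a start of Mest (chr6:30737800-30738099, plus).
Snurf and Snrpn: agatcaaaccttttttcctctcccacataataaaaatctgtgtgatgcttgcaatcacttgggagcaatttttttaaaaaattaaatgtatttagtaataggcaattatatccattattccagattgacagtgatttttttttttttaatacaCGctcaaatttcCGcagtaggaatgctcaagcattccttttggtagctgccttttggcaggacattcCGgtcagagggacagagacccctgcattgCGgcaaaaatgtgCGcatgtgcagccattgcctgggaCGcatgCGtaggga
Mkrn3: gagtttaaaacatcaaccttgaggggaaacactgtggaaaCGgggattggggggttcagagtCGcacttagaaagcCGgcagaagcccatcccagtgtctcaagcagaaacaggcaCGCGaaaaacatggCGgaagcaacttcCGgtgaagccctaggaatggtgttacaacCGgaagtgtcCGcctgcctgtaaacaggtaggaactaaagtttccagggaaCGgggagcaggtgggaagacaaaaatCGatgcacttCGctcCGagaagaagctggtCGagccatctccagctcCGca
Peg12: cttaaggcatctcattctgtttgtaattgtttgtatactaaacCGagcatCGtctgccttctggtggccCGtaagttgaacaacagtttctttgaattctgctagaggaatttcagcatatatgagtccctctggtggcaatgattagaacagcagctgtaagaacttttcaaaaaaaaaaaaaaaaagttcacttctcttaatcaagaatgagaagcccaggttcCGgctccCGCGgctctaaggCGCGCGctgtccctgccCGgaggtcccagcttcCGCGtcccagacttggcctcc
Ndn: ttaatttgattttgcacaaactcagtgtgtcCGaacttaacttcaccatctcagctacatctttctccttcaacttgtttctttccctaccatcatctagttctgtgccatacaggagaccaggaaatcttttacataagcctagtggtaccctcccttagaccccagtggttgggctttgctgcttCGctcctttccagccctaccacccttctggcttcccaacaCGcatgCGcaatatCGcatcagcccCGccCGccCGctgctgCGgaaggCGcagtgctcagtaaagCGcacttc
Mest: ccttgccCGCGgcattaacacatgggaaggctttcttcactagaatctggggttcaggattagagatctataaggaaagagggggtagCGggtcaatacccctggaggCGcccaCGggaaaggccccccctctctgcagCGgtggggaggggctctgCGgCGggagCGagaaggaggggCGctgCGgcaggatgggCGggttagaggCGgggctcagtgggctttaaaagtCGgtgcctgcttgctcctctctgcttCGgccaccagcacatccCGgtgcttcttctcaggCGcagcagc

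The window of Snurf and Snrpn holds 7 CG, which equals the median of all 32851 promoter windows. Peg12 has 12, Ndn 11, Mkrn3 15 and Mest 17, and 31.4% of all windows hold at least as many as that of Mest. The letters TGCCGC, which the imprint-keeping protein Zfp57 binds when methylated, were searched on both strands. They occur in the Snurf and Snrpn window from 2 bases before the start and in the Mest window from 242 and 67 bases before it, and not in those of Mkrn3, Peg12 and Ndn. Over 29 imprinted genes with a window, 12 of 42 windows held the letters (28.6%), against 11.6% of all windows. Chromosome 18, where Impact lies, was left out for the imprinted genes but not for all windows. The letters hold a CG, and the median window had 13 CG among the imprinted genes and 7 among all. The 12 windows count the one shared by Snurf and Snrpn for both genes, and overlapping windows of Mest. Such a match is a description of the letters, and the table says nothing of methylation or binding at these windows.

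**Figure D2:**
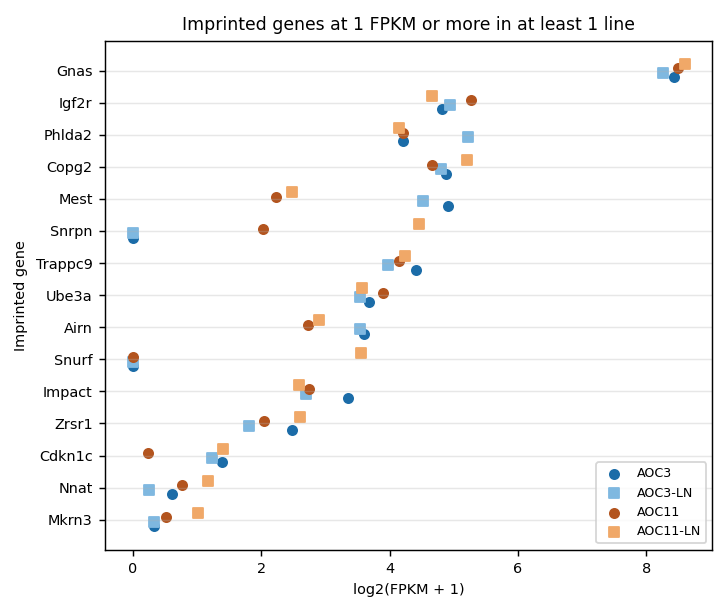
Level of the 15 imprinted genes at 1 FPKM or more in at least 1 line, as log2(FPKM + 1), with 1 point per line (circles for primary lines, squares for lymph node lines). The points of Snrpn, Snurf and Mest spread widest, while those of Gnas, Ube3a and Copg2 lie close together.

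Snrpn and Snurf were read together, because they are a single paternally expressed unit. Snrpn encodes SmN, a spliceosome protein that resembles SmB, and Snurf is a short reading frame upstream of it on the same RNA. In the annotation the 216 exon bases of Snurf all lie inside exons of Snrpn, so the division of fragments between the entries is uncertain. Snrpn (ENSMUSG00000102252.5, chromosome 7, 59982495 to 60140219) was listed at 0 in both lines of the AOC3 pair, while AOC11 had 3.06 FPKM and AOC11-LN 21.1 FPKM. Snurf (ENSMUSG00000102627.1, 59995449 to 60005049) was listed at 0 in both AOC3 lines, effectively at 0 in AOC11, and at 10.8 FPKM in AOC11-LN. The sum of both entries was 3.06 FPKM in AOC11 and 31.9 FPKM in AOC11-LN, and 0 in both AOC3 lines. This sum adds FPKM over unequal lengths: the value of Snurf in AOC11-LN corresponds to about 19 fragments on its 216 bases. For Snrpn alone AOC11-LN was 6.91-fold above AOC11. Within the AOC11 pair the lymph node line was thus higher for this unit.

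A value of 0 limits the level and does not show absence, and 21 genes of the table were listed at 0 in 1 line but at 10 FPKM or more in the others. On the depth estimated here, 3 fragments on the longest Snrpn transcript would be 0.0465 FPKM in the primary AOC3 line and 0.0555 FPKM in its lymph node line, and this covers counting error only. In AOC11 and AOC11-LN the Snrpn values correspond to at most about 195 and 1310 fragments. The entries of Gm38393 and of the nearest part of Snhg14 were also highest in AOC11-LN. Gm38393, which shares exons with both genes, had 1.29 FPKM in AOC11-LN and 0.0736 in AOC11, and at most 0.00917 in the AOC3 pair. The entry of Snhg14, a long noncoding host of small nucleolar RNAs, that lies next to the 3′ end of Snrpn was listed at 0 in both AOC3 lines and had 0.156 FPKM in AOC11 and 2.29 FPKM in AOC11-LN. The Snhg14 entry that overlaps the end of Ube3a did not follow it: AOC3 had 3.31 FPKM, AOC3-LN 2.39, AOC11 4.20 and AOC11-LN 3.97. Nor did 2 further Snhg14 entries in between, while the remaining ones there were at most 0.0217 FPKM in any line. For that from 59619158 to 59874749, AOC3-LN was highest with 1.55 FPKM and AOC11-LN lowest with 0.825 FPKM. For that from 59645250 to 59645543, AOC3-LN was highest with 7.63 FPKM, against 3.02 FPKM for AOC11-LN. Snrpb, the gene of SmB, which could share reads with Snrpn, lay between 316 FPKM in AOC3 and 360.4 FPKM in AOC3-LN.

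Ndn, Mkrn3 and Peg12 lie 2.34 to 2.46 Mb beyond Snurf, on the side away from Ube3a. Mkrn3, a ring finger protein that restrains puberty onset, was low throughout: AOC3 had 0.261 FPKM, AOC3-LN 0.251, AOC11 0.425 and AOC11-LN 1.02. Peg12, an intronless relative of the Frat genes of Wnt signaling, was listed at 0 in both AOC3 lines, at 0.0120 FPKM in AOC11 and at 0.658 FPKM in AOC11-LN. For Peg12, which has 1 transcript, these values correspond to about 1 fragment in AOC11 and 53 in AOC11-LN, and the Mkrn3 values to 16.9 to 34 fragments in the other lines and 78.9 in AOC11-LN. AOC11-LN was thus the highest line for both genes, as it was for Snrpn and Snurf. Ndn, which encodes the growth suppressor Necdin and lies 67.3 kb from Mkrn3, was listed at 0 in every line, where 3 fragments would be 0.0252 to 0.0302 FPKM. Ube3a, the ubiquitin ligase lost in Angelman syndrome, is expressed from both copies outside neurons. AOC11 had 13.8 FPKM, AOC3 11.8, AOC11-LN 10.9 and AOC3-LN 10.6, and no comparison of it passed a 2-fold difference.

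**Figure D3:**
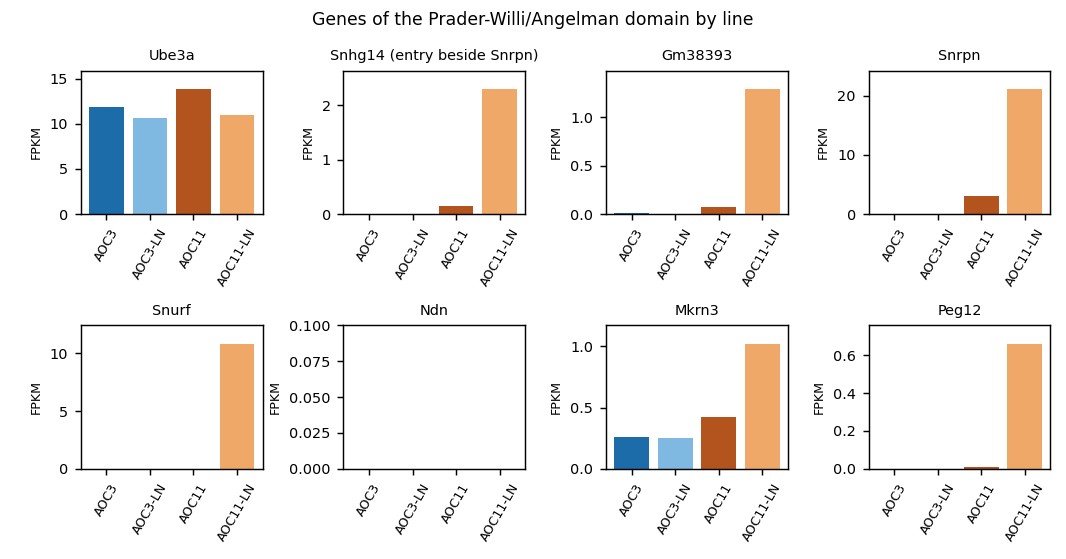
FPKM of 8 genes of the Prader-Willi/Angelman domain, 1 bar per line and a separate scale starting at 0 in each panel. AOC11-LN has the highest bar for Snhg14 (the entry beside Snrpn), Gm38393, Snrpn, Snurf, Mkrn3 and Peg12, Ube3a is similar in all lines, and Ndn is listed at 0.

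Mest was higher in the AOC3 pair, opposite to Snrpn. Mest is a paternally expressed gene of the alpha/beta hydrolase family that is high in embryonic mesoderm. The AOC3 pair had 29.1 FPKM (primary) and 22.1 FPKM (lymph node), against 3.67 and 4.56 FPKM for the AOC11 pair (ENSMUSG00000051855.15, chromosome 6, 30723547 to 30748465). AOC3 was 7.94-fold above AOC11 and AOC3-LN 4.84-fold above AOC11-LN. The neighboring gene Copg2 encodes a coatomer subunit and is transcribed toward Mest on the opposite strand, sharing 912 bases of exon with it. Its highest level was 36.0 FPKM in AOC11-LN, followed by AOC3 with 28.4, AOC3-LN with 26.8 and AOC11 with 24.4, so it did not share the order of Mest. The methods name no strand setting for the counting, so fragments in the shared bases cannot be assigned to either gene with certainty.

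In the Kcnq1 domain at the end of chromosome 7, Cdkn1c, Phlda2 and Slc22a18 each had a different order of lines. Cdkn1c, the CDK inhibitor p57 and a maternally expressed gene, had 1.64 FPKM in AOC11-LN, 1.63 in AOC3, 1.34 in AOC3-LN and 0.182 in AOC11. AOC11 was the low line, 8.94-fold under AOC3 and 9.02-fold under AOC11-LN in FPKM, on at most about 10.6 fragments. The antisense entry Gm44732, which covers 30.7% of the Cdkn1c exon bases, was also lowest in AOC11, at 0.0657 FPKM, against 0.973 to 1.38 FPKM in the other lines. Phlda2, a maternally expressed pleckstrin homology protein that limits placental growth, had 36.2 FPKM in AOC3-LN, against 17.6 in AOC3, 17.4 in AOC11 and 16.8 in AOC11-LN. AOC3-LN was thus the high line, 2.06-fold above its primary line. Slc22a18, a transporter gene between them, stayed under 1 FPKM, with 0.666 and 0.389 FPKM in the AOC3 lines and 0.164 and 0.158 in the AOC11 lines. Kcnq1ot1, the paternal noncoding RNA that represses the domain, had 0.0510 to 0.0853 FPKM over its 93092 bases, and Ascl2, a trophoblast transcription factor, at most 0.0208 FPKM. Cd81, a tetraspanin gene 390 kb from Cdkn1c, had 6.13 FPKM in AOC3-LN, against 80.1 in AOC3, 117 in AOC11 and 170.5 in AOC11-LN, so its low line was the one where Phlda2 was high.

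Igf2r and Airn were expressed in every line. Igf2r, the mannose-6-phosphate and IGF2 receptor, had its highest level in AOC11 (37.5 FPKM), then AOC3-LN (29.6), AOC3 (27.2) and AOC11-LN (24.4). Airn, the paternal noncoding RNA that starts inside Igf2r and silences it in cis, had 11.1 FPKM in AOC3 and 10.6 in its lymph node line, against 5.61 FPKM in AOC11 and 6.47 in its lymph node line. Airn was 1.98-fold higher in AOC3 than in AOC11 and 1.64-fold higher in AOC3-LN than in AOC11-LN, which is under the 2-fold threshold. The exons of Airn share no base with those of Igf2r, and 114 of its 3597 exon bases lie inside the Igf2r span.

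Outside these clusters, 5 further genes reached 1 FPKM, and on the log2(FPKM + 1) scale none passed a 2-fold difference. Gnas, which encodes the stimulatory G protein alpha subunit and is biallelic in most tissues, was the highest of all, from 305 FPKM in AOC3-LN through 345 in AOC3 and 359 in AOC11 to 388 in AOC11-LN. It shares 1469 exon bases with Gm20721 on the opposite strand, which had 388 to 478 FPKM. Trappc9, a subunit of a vesicle tethering complex, had 14.7 FPKM in AOC3-LN, 16.7 in AOC11, 18.0 in AOC11-LN and 20.2 in AOC3. Zrsr1, a retrocopy of the splicing factor gene Zrsr2 that lies within Commd1 on the opposite strand, had 5.06 FPKM in AOC11-LN, 4.56 in AOC3, 3.11 in AOC11 and 2.50 in AOC3-LN. It shares 412 exon bases with Commd1, which had 83.4 to 106 FPKM. Impact, an inhibitor of the stress kinase GCN2, had 9.21 FPKM in AOC3, 5.72 in AOC11, 5.48 in AOC3-LN and 5.01 in AOC11-LN. Nnat, a small membrane protein of the developing brain, was near the limit of 1 FPKM, at 1.24 FPKM in AOC11-LN, 0.696 in AOC11, 0.527 in AOC3 and 0.191 in AOC3-LN, and its FPKM ratio between the lymph node lines was 6.49.

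The remaining clusters were low. In the Igf2-H19 domain, Igf2 had 0.390 FPKM in AOC3-LN and 0.597 in AOC11-LN, against 0.113 in AOC3 and 0.0944 in AOC11, so both lymph node lines were above both primary lines, on at most about 88.5 fragments. It shares 62.8% of its exon bases with the entry Gm49394, which was effectively at 0. H19, the maternal noncoding RNA of the same domain, had 0.355 FPKM in AOC3 and 0.0469 to 0.0690 FPKM in the others. The 5 genes of the Dlk1-Meg3 cluster on chromosome 12 (Meg3, Dlk1, Rian, Mirg and Rtl1) were at most 0.0779 FPKM in any line. Peg10 and Sgce, which start 99 bases apart on chromosome 6, were at most 0.0787 FPKM, while the nearby Casd1, 31.0 kb from Sgce, had 0.710 FPKM in AOC3-LN to 4.68 FPKM in AOC11-LN. At the Peg3 cluster, Peg3, a zinc finger gene linked to p53-dependent cell death, had 0.223 FPKM in AOC11-LN and 0.00960 to 0.0196 FPKM in the others. Its partners Usp29 and Zim1 had at most 0.0180 FPKM. Plagl1, a zinc finger growth suppressor, had 0.333 FPKM in AOC3-LN and 0.428 in AOC11-LN, against 0.157 in AOC3 and 0.0642 in AOC11. The primary line values rest on at most about 27 fragments for Plagl1 and 17.3 for Igf2. How many of all genes had both lymph node lines above both primary lines was not counted. Peg13, a noncoding RNA inside Trappc9, had 0.293 and 0.201 FPKM in the AOC3 lines, 0.00650 in AOC11 (1 fragment) and 0 in AOC11-LN. Grb10, Nap1l5 and Kcnk9 were at most 0.0836 FPKM.

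**Figure D4:**
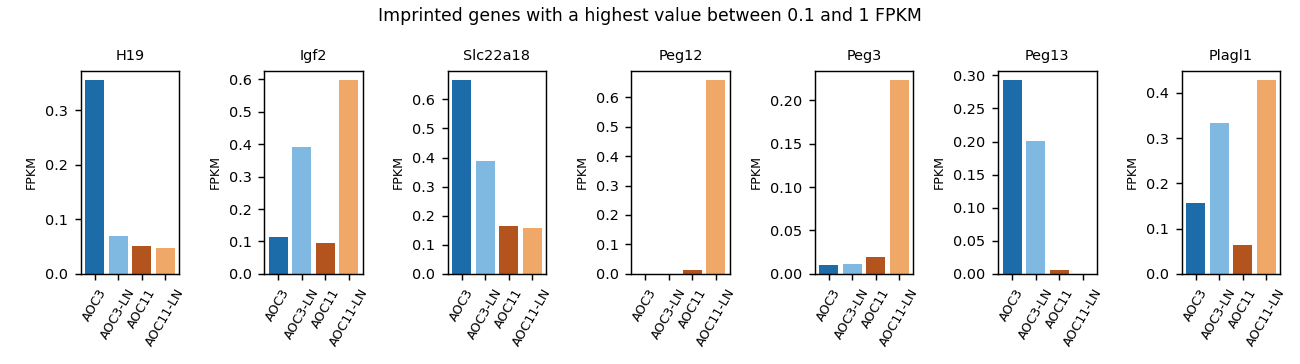
FPKM of the 7 imprinted genes whose highest value lay between 0.1 and 1 FPKM, 1 bar per line, each panel on its own scale from 0. AOC11-LN has the highest bar for Igf2, Peg12, Peg3 and Plagl1, and AOC3 for H19, Slc22a18 and Peg13.

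Over the paternally expressed genes with a value above 0 in AOC11 or AOC11-LN, 14 of 18 were higher in AOC11-LN, against 3 of 10 maternally expressed genes and 56.5% of all genes. Snrpn and Snurf count as 2 of the 14 although they share an RNA, and 7 of the 14 were under 1 FPKM in every line. Snrpn, Snurf, Mkrn3 and Peg12 also lie in the same domain. Among the 14, Usp29 rests on at most about 3.59 fragments in AOC11 and 4.33 in AOC11-LN, and Peg10 on 2.03 and 4.06. Mest and Airn, also among them, had log2 differences of only 0.12 and 0.14. Of the paternally expressed genes lower in AOC11-LN, Nap1l5 rests on at most about 3.57 fragments in either line and Peg13 on 0.999. Of the 10 maternally expressed genes, 3 reached 1 FPKM in at least 1 line. The others rest on at most about 11.2 fragments in AOC11 or AOC11-LN, and Ascl2, Zim1 and Mirg on at most about 1. Between AOC3-LN and AOC3 the counts were 6 of 14 paternally and 4 of 8 maternally expressed genes, with 45.7% of all genes higher in AOC3-LN. This division was counted after the values were seen and has no test, and the summed fibroblast markers were also higher in AOC11-LN.

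For the comparison of lines, log2(FPKM + 1) was quantile-normalized, and genes beyond 1 or -1 in log2 difference were counted among the 14155 genes at 1 FPKM or more in at least 1 line. In AOC3-LN against AOC3, 1 of the 15 imprinted genes was higher, namely Phlda2 at 1.03, where 2.11% of all genes were, and 0 were lower, where 3.43% of all genes were. In AOC11-LN against AOC11, Snrpn (2.38) and Snurf (3.52) were higher, beside 4.97% of all genes, and 0 were lower, beside 3.14%. Snurf, Mkrn3 and Nnat passed the filter through AOC11-LN alone, and the level of Snurf there was known when the genes were chosen. With Snurf and Snrpn summed, 1 of 14 genes was higher in this comparison. Cdkn1c had 0.94 in this comparison, just under the threshold, and passed it with a smaller pseudocount or without quantile normalization. Between the primary lines, Mest (2.70) and Cdkn1c (1.07) were higher in AOC3, beside 6.25% of all genes, and Snrpn was lower (-2.07), beside 5.71%. Between the lymph node lines, Mest (2.22) and Phlda2 (1.11) were higher in AOC3-LN, beside 7.58% of all genes, and Snrpn (-4.44) and Snurf (-3.52) were lower, beside 8.69%. The genes were chosen with results of these comparisons in view, so the counts and medians are a description. In comparisons with AOC11-LN both also include the genes that passed the filter through that line alone. Differences against a line listed at 0 depend on the 1 that is added and give no fold, and the value of Snurf rests on a transcript of 216 bases. The median log2 difference of the 15 genes was -0.06, 0.13, 0.07 and -0.16 in these comparisons, where that of all genes was 0.02, -0.02, -0.01 and 0.03.

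**Figure D5:**
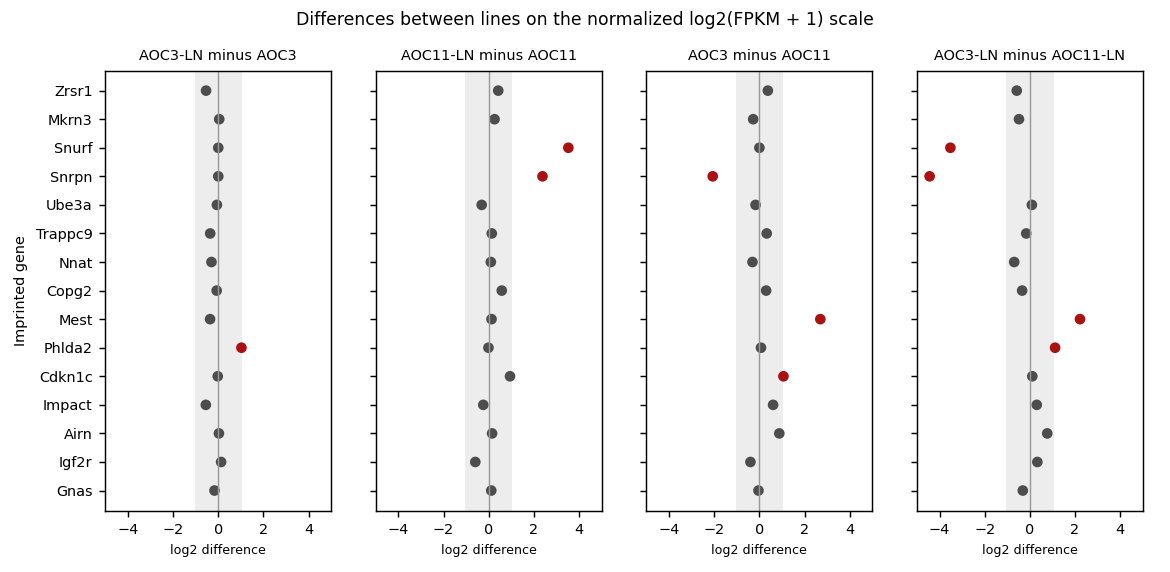
Log2 difference of the 15 imprinted genes (rows) in the 4 comparisons (panels), on the quantile-normalized log2(FPKM + 1) scale, with the span from -1 to 1 in grey and values past it in red. Snrpn and Mest lie on opposite sides in both comparisons of AOC3 with AOC11 lines.

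Of 28 genes of proteins that set, keep and read imprints, 25 passed the filter on low values. In AOC3-LN against AOC3, 0 were higher and 1 was lower (2.11% and 3.43% of all genes). Between the primary lines 0 were higher and 1 was lower in AOC3 (6.25% and 5.71%), and in the other comparisons 0 passed 2-fold either way, beside 4.97% and 3.14% of all genes in AOC11-LN against AOC11 and 7.58% and 8.69% between the lymph node lines. Zfp57, the zinc finger protein that keeps methylation at imprinting control regions, had 0.310 FPKM in AOC3-LN, against 2.14 in AOC3, 1.51 in AOC11 and 1.96 in AOC11-LN, with a log2 difference of -1.18 between the AOC3 lines. Dnmt3b, which sets new methylation, had 0.495 and 0.511 FPKM in the AOC3 pair, against 2.49 in AOC11 and 1.33 in AOC11-LN, with a log2 difference of -1.31 between the primary lines. Tet1, which oxidizes methylated cytosine, had 1.04 FPKM in AOC3-LN and 0.245 to 0.405 in the others. Suz12, a Polycomb subunit, had 37.2 FPKM in AOC11 and 22.1 to 22.5 in the others. Dnmt1, which copies methylation at replication, ranged from 50.1 to 60.6 FPKM, and Trim28, the corepressor that Zfp57 recruits, from 175 to 245 FPKM.

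Of 43 genes chosen as neighbors of the 38 genes, 42 had an entry and 25 passed the filter. No parental class was assigned to these neighbors, and some may be imprinted too. In AOC3-LN against AOC3, 1 was higher and 2 were lower (all genes 2.11% and 3.43%), and in AOC11-LN against AOC11 2 and 1 (all genes 4.97% and 3.14%). Between the primary lines the counts were 2 and 1 (all genes 6.25% and 5.71%), and between the lymph node lines 3 and 7 (all genes 7.58% and 8.69%). The widest differences were those of Cd81, given above, and of Cpa4, Pon3 and Lsp1. Cpa4, a carboxypeptidase gene close to Mest, had 21.2 FPKM in AOC3-LN, 3.95 in AOC3, 1.02 in AOC11 and 0.370 in AOC11-LN. Pon3, a paraoxonase gene near Peg10, had 20.6 FPKM in AOC11, 15.5 in AOC11-LN, 4.53 in AOC3 and 0.548 in AOC3-LN. Lsp1, a gene beside the Igf2-H19 domain, had 10.7 FPKM in AOC11-LN and 0.577 to 2.55 in the others.

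Of 17 paralogs and parent genes, 14 passed the filter. In AOC3-LN against AOC3, 1 was higher and 0 were lower (all genes 2.11% and 3.43%), and in AOC11-LN against AOC11 0 either way (all genes 4.97% and 3.14%). Between the primary lines the counts were 1 and 0 (all genes 6.25% and 5.71%), and between the lymph node lines 2 and 2 (all genes 7.58% and 8.69%). The CDK inhibitor gene Cdkn1a had 6.97 FPKM in AOC11 and 7.64 in AOC11-LN, against 14.6 in AOC3 and 23.8 in AOC3-LN, so AOC11 was its lowest line, as for Cdkn1c, but with AOC11-LN close to it. Cdkn1b was lowest in AOC3-LN (14.7 FPKM) and highest in AOC11-LN (40.5 FPKM). Phlda1, a relative of Phlda2, was also highest in AOC3-LN, at 97.0 FPKM, against 37.5 to 60.2 in the others. Grb14, a relative of Grb10, had 4.60 FPKM in AOC3-LN, 4.11 in AOC11-LN, 2.67 in AOC11 and 1.65 in AOC3.

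Of 17 genes of IGF signaling and its RNA regulators, 12 passed the filter. In AOC3-LN against AOC3, 1 was higher and 4 were lower (all genes 2.11% and 3.43%), and in AOC11-LN against AOC11 1 and 1 (all genes 4.97% and 3.14%). Between the primary lines the counts were 5 and 1 (all genes 6.25% and 5.71%), and between the lymph node lines 4 and 3 (all genes 7.58% and 8.69%). Igfbp4, an IGF-binding protein gene, had 97.4 and 16.9 FPKM in the AOC3 pair, against 0.462 and 1.39 FPKM in the AOC11 pair, primary line first. Igfbp6, another of the family, had 3.44 FPKM in AOC3 and 4.95 in AOC11-LN, against 0.295 in AOC3-LN and 0.0956 in AOC11. Hmga2, a chromatin protein gene, was higher in the AOC3 pair, at 171 and 130.2 FPKM, than in the AOC11 pair, at 28.8 and 40.4 FPKM. Igf2bp1, which binds Igf2 RNA, was at 0.0771 and 0.0820 FPKM in the AOC3 pair and at 3.66 and 1.47 FPKM in the AOC11 pair. Igf1r, the receptor through which IGF2 signals, ranged from 7.17 to 9.63 FPKM.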

How the data were processed

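RNA from 4 cultured mouse lines was sequenced with a TruSeq Stranded mRNA kit, 1 library per line. The authors trimmed reads with Trim Galore and estimated FPKM with TopHat2 and Cufflinks on mm10 and GENCODE M21, and the FPKM values were deposited on a linear scale, not log-transformed. No strand setting is stated. Of 34685 identifiers, 29 had several entries, which were summed. Then log2(FPKM + 1) was quantile-normalized over all genes, genes at 1 FPKM or more in at least 1 line were kept, and 2-fold differences were counted in 4 comparisons of single lines, with no test. Library sizes came from genes with 1 transcript, where 71.2% to 73.8% of low values fell within 0.1 of whole fragments. Fragment numbers and limits use the longest transcript, so the numbers are upper estimates. The library size estimate and the counting of differences were tested on simulated data. The simulated differences were well past 2-fold and lay in genes with a mean of 10 FPKM or more. Low genes and differences near the threshold were thus not covered. The members and all lists were chosen with earlier results of these data known. All members are accounted for, and from each other list the 4 genes with the largest log2 difference are named, besides genes that a result turns on. Promoter windows came from RefSeq and exon overlaps from GENCODE M21. Python 3.11.15 with pandas 2.3.3 was used. Under 8 alternative settings the differences were recomputed.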

Additional observations from a re-analysis of the deposited data

Results flagged for a closer look

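Phlda2 was higher in the lymph node line of the AOC3 pair, past 2-fold, and nearly level in the AOC11 pair, where the sign was opposite. The log2 difference was 1.03 in AOC3-LN against AOC3 and -0.02 in AOC11-LN against AOC11, so the second is close to no difference. Each shift compares single libraries, and the difference between the pairs was not tested.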

How the results depend on the processing

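The 60 differences of the 15 imprinted genes were recomputed under the alternative settings wherever a gene was still measured, which gave 404 values. Of these, 399 stayed on the same side of the 2-fold threshold, 5 crossed it, and 0 past it changed sign. Cdkn1c in AOC11-LN against AOC11 crossed it with a pseudocount of 0.1 (2.17), without quantile normalization (1.16) and with median scaling (1.14). Nnat (-1.75) and Mkrn3 (-1.22) crossed it in AOC3-LN against AOC11-LN with a pseudocount of 0.1. With Snurf and Snrpn summed, the count in AOC11-LN against AOC11 was 1 gene in place of 2. At a 1.5-fold threshold it was 4 there and 5 between the primary lines, in place of 3, while 24.6% and 28.8% of all genes passed. Without a filter and with the largest entry per identifier the counts were 1, 2, 3 and 4 as before, and with a filter at 5 FPKM that between the primary lines was 2. With a pseudocount of 0.1, 10.2%, 14.6%, 18.6% and 23.8% of all genes passed in the 4 comparisons. Each line is 1 library, so none could be left out of its comparison, and a site effect blocked by pair, which would leave 1 residual degree of freedom, was not fitted. Of the genes under 0.1 FPKM in every line, Kcnq1ot1 rests on 133 to 258 fragments and the others on at most 20.9.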
